A study of Carassius auratus with 5 samples.

Results

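The small subunit of the ribosome, called 40S in animal cells, is built from 1 ribosomal RNA and a set of proteins named S2, S3, S4 and so on. The clones described here are those cDNA clones on a goldfish (Carassius auratus) array whose description names a cytosolic small subunit protein, with mitochondrial proteins, kinases and large subunit proteins left out. There were 57 such clones among 8099 on the array, for 21 different proteins, and all 57 passed the filter on dim clones. The rule matched the clone descriptions and used no measured value, but it was set with earlier results of these data known. Some proteins had several clones, with 13 for S11, 4 each for S19 and S27, 3 each for S2, S4, S7, S15a, S16, S18 and S24, and 2 each for S6, S15, S21 and SA. The other 7 proteins (S3, S3a, S5, S12, S17, S23 and S25) had 1 clone each. Clones of 1 protein are not replicates of each other, and how far their targets overlap is not given in the descriptions.

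Total RNA came from the telencephalon, the front part of the brain, of sexually mature females. The exposed fish were held in water with fadrozole at 50 µg/L, a drug that blocks aromatase, which converts androgens to estrogens and has high activity in the brain of fish. The control fish were not exposed. On each of 5 arrays, RNA of 1 independent exposed group (replicates 1 to 5, labeled with Cy3) was hybridized against the same pool of control fish (labeled with Cy5). The dyes were not swapped, so a difference between the dyes that normalization leaves cannot be told apart from an effect of exposure. Because the controls were 1 pool, the test of the ratio against 0 leaves out the spread among control fish. How many fish made up a group or the pool is not given in the sources used here, nor is the length of the exposure. The p-values therefore measure the spread among these 5 arrays. That spread joins differences between the exposed groups with those of labeling and hybridization, which cannot be told apart here.

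The small subunit binds the mRNA, scans it for the start codon together with initiation factors, and holds the decoding site where each codon is matched to a tRNA. Structural work on yeast and mammalian ribosomes divides it into a head, a body and a platform, with the mRNA running through the cleft between head and body. Transcripts of ribosomal proteins are among the most abundant in most cells, and in mammals they share a motif at their start through which the TOR pathway controls their translation.

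The arrays differed in brightness, and which channel passed less often depended on the mark for a measured signal. The median spot intensity lay between 122 and 386 scanner units in the fadrozole channel and between 62.9 and 96.4 in the control channel. On single arrays the fadrozole channel of 25 to 49 of the 57 small subunit clones stood above the local background, and the control channel of 54 to 56. The 95th percentile of empty spots, a second mark, was passed by 10, 41, 33, 7 and 31 of the 57 in the fadrozole channel of replicates 1 to 5 and by 33, 36, 12, 17 and 26 in the control channel. By this mark more clones passed in the fadrozole channel on replicates 2, 3 and 5, and more in the control channel on replicates 1 and 4. By local background, the fadrozole channel was above it on at least 3 arrays for 39 clones, on 1 or 2 arrays for 16 and on 0 arrays for 2, both S11. The forebrain marker ependymin was well measured, with both channels of its 33 clones above background on at least 3 arrays. With 5 arrays the precision of each value is limited, and in a tissue extract fewer cells of a type and less RNA per cell cannot be told apart.

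The comparison asks how transcripts of small subunit proteins in the forebrain of females respond when aromatase is inhibited. Values are log2 ratios of fadrozole over control, so that a positive value means more signal from exposed fish, and errors are SDs over the 5 arrays. One clone was called higher, as defined below, a clone of S7 (39p04) at 0.42 ± 0.11, which is 1.34-fold, and 0 clones were called lower. The call was lost in 11 of 19 alternative ways of processing the data. In most of these, no clone of the whole array was called. The 57 clones together had a mean of 0.07 ± 0.04, with 0.06, 0.13, 0.07, 0.02 and 0.07 on replicates 1 to 5. The mean was above 0 on each array. The median of the 57 clones was 0.05, and 34 of them (59.6%) had a mean above 0. Over all 8078 tested clones the mean was -0.01, the median was -0.003 and 49.0% were above 0. None of the 57 lay on plates 02 and 04, 2 of the source plates that the array was printed from, read from the first characters of a clone's name. Over the 7310 tested clones of the other plates the mean was 0.02, the median was 0.01 and 53.1% were above 0.

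Called means an adjusted p under 0.05 in limma's test with Benjamini-Hochberg adjustment over all tested clones. By this rule 1 of the 57 clones was called, against a background of 2.03% of all tested clones (0.421% called higher and 1.61% called lower). Outside plates 02 and 04, which held most of the lower calls, 0.451% were called higher and 0.041% lower. An unadjusted p under 0.05 was reached by 10 clones that were higher (17.5%) and 1 that was lower (1.75%), where the shares over all tested clones were 6.29% higher and 8.06% lower. Values were above 0 on all 5 arrays for 10 clones (17.5%), against 7.14% of all tested clones, and below 0 on all 5 arrays for 0 clones, against 7.65%. Outside plates 02 and 04 these shares were 7.81% and 3.93%. Of the 651 lower clones of the array, 223 lay outside plates 02 and 04, where the shares at an unadjusted p under 0.05 were 6.87% higher and 3.05% lower. For other clones of the plates holding small subunit clones, weighted by how many each held, these shares were 10.9% and 3.27%. Of them, 9.41% were above 0 on all arrays. The small subunit clones were also brighter, at a median intensity percentile of 69.7 against 50.1 for all tested clones. Of clones with both channels above background on at least 3 arrays, 12.5% were higher at an unadjusted p under 0.05. Of the 39 small subunit clones among them, 9 were. Without replicate 5, 5 of the 57 were higher at an unadjusted p under 0.05, against 4.95% of all tested clones. The 10 higher clones belonged to 8 proteins, and 5 of the 10 had another clone of the same protein with a mean below 0. For 49 of the 57, the 95% interval of the mean lay within 0.5 of 0. The same share over all tested clones was not counted, and the processing draws the ratios of dim clones towards 0.

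**Figure D1:**
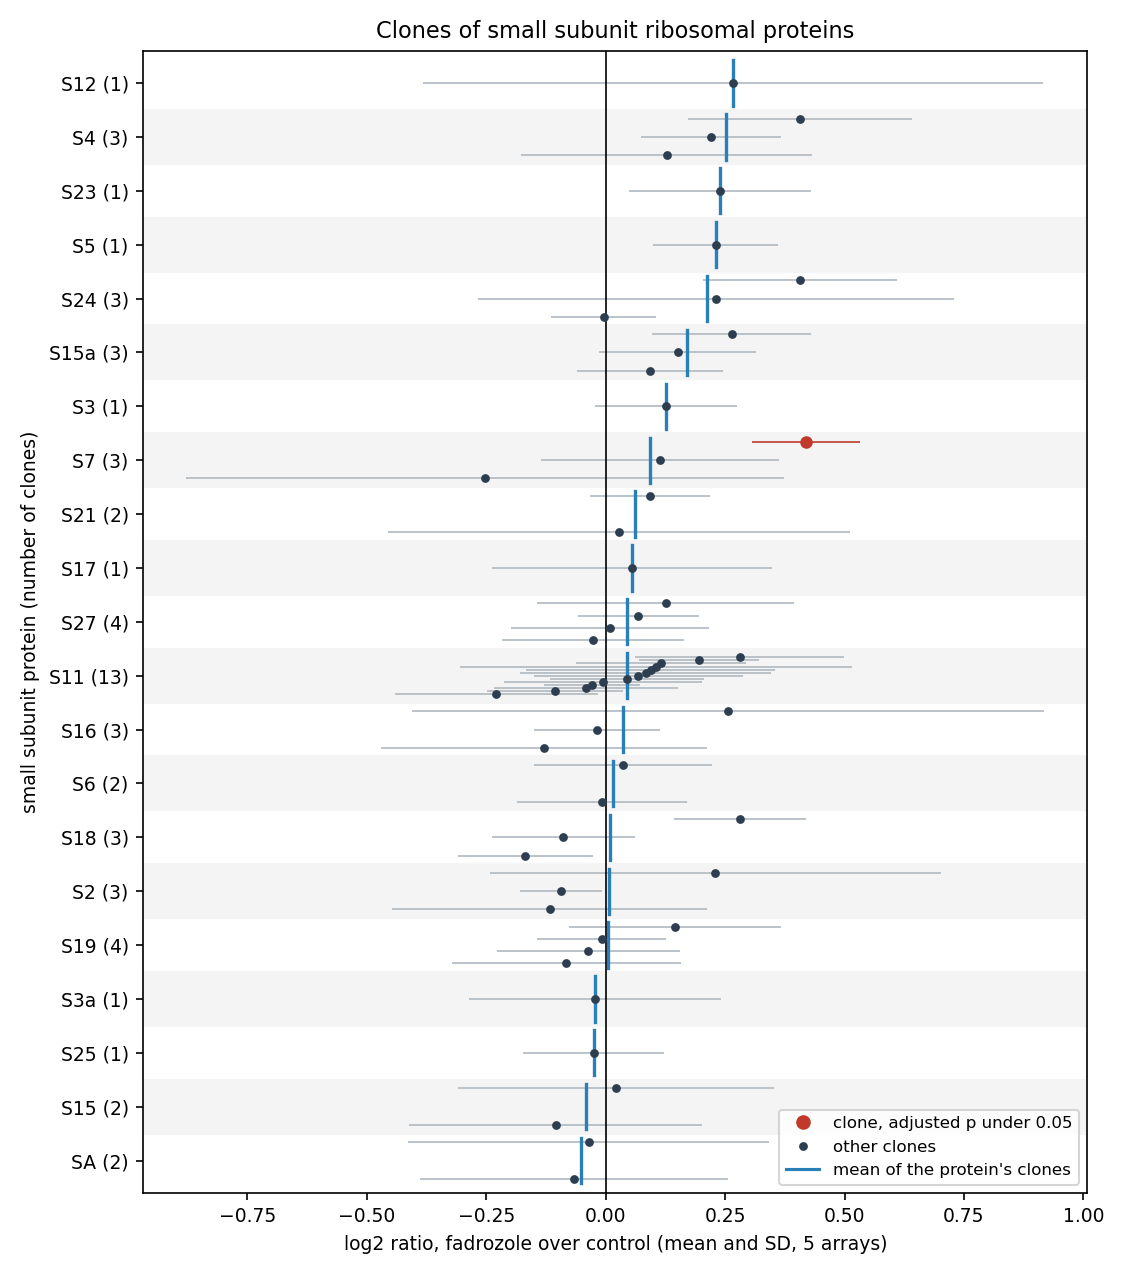
Mean log2 ratio of fadrozole over control of each of the 57 clones (points, with SD over 5 arrays as bars), grouped by protein, with the mean of a protein's clones as a vertical line. The called S7 clone 39p04 stands at 0.42, while the 13 S11 clones spread from -0.23 to 0.28 and most other points lie within their SD of 0.

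The platform faces the exit of the mRNA channel, and 12 clones of 5 of its proteins (S3a, S7, S21, S27 and SA) were measured. Their mean was 0.04 ± 0.09, above 0 on 3 of 5 arrays, with 7 of 12 clone means above 0. S7 is needed to process the precursor of the small subunit rRNA, and in human and mouse cells it also binds MDM2, a regulator of p53. The called S7 clone 39p04 had log2 ratios of 0.60, 0.35, 0.30, 0.39 and 0.45 on replicates 1 to 5. All 5 arrays were high and close together, with replicate 1 the highest. The mean of 0.42 ± 0.11 had a 95% interval of 0.25 to 0.59 and an adjusted p of 0.0335 in limma's test.

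The raw signal of this clone was far above background in both channels. Its spots read 2231, 2713, 1919, 1049 and 413 scanner units in the fadrozole channel of replicates 1 to 5, against 1089, 1277, 572, 361 and 421 in the control channel. On replicate 5, where the whole fadrozole channel was dimmer, the 2 raw readings were nearly equal, and the log2 ratio after normalization was 0.45. The 2 spots of the clone differed by up to 0.51 in log2 ratio on 1 array, and each spot was above 0 on every array. The call depended on all 5 arrays, since with any 1 array left out its adjusted p was between 0.0554 and 0.117. Calls over the whole array fell as well, to 1 without replicate 1 and 0 without replicate 2 or 3. They numbered 174 without replicate 4 and 99 without replicate 5, against 164 with all arrays. The call was also lost in 6 other alternatives (adjusted p from 0.0660 to 0.178, limma). Among them were each source plate centered on its median (mean 0.36, adjusted p = 0.175) and the authors' own processed values (mean 0.31, adjusted p = 0.159). The authors' values run on a smaller scale than log2 ratios (slopes -0.73 to -0.81 before their direction was turned). Their 0.31 is therefore not directly comparable with 0.42. Another of these 6 alternatives was leaving out plates 02 and 04, which hold none of the small subunit clones. There its mean was unchanged, its adjusted p in limma's test was 0.178, and 0 clones of the array were called.

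The other S7 clones did not share the value. Clone 39m09 had 0.50, 0.10, -0.07, 0.17 and -0.13, a mean of 0.11 ± 0.25. Its fadrozole channel was above background on 2 arrays, against 5 for 39p04. Clone 40i08 had -0.23, 0.17, 0.00, 0.14 and -1.34, a mean of -0.25 ± 0.63, the lowest of all 57. Its fadrozole channel was above background on 3 arrays. Clone 39p04 was above both on every array, by 0.30 ± 0.18 and by 0.67 ± 0.67, a comparison chosen after the values were seen. The low mean of 40i08 rests on replicate 5, where both spots were low (-1.16 and -1.51), and without that array it was 0.02. The mean of the 3 S7 clones was 0.09 ± 0.25, and 0.20 without replicate 5. The descriptions do not say whether the clones come from the same gene copy.

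The other platform proteins had 0 clones called by limma and 0 at an unadjusted p under 0.05. S27, a zinc finger protein, had 4 clones with means from -0.03 to 0.13 (40i07 0.13, 39o08 0.07, 60k05 0.01 and 35i19 -0.03), and their joint mean of 0.04 ± 0.04 was above 0 on all 5 arrays. S21, which sits beside SA, had clone means of 0.09 (39b19) and 0.03 (39b22). Clone 39b22 was at -0.80 on replicate 3, with spots at -0.02 and -1.58, and without that array its mean was 0.24 and the joint mean of S21 was 0.16 in place of 0.06. SA, also known as the laminin receptor precursor, had clone means of -0.04 (51h22) and -0.07 (30j08), with arrays on both sides of 0. The single clone of S3a, which contacts initiation factor eIF3, had a mean of -0.02 ± 0.26.

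**Figure D2:**
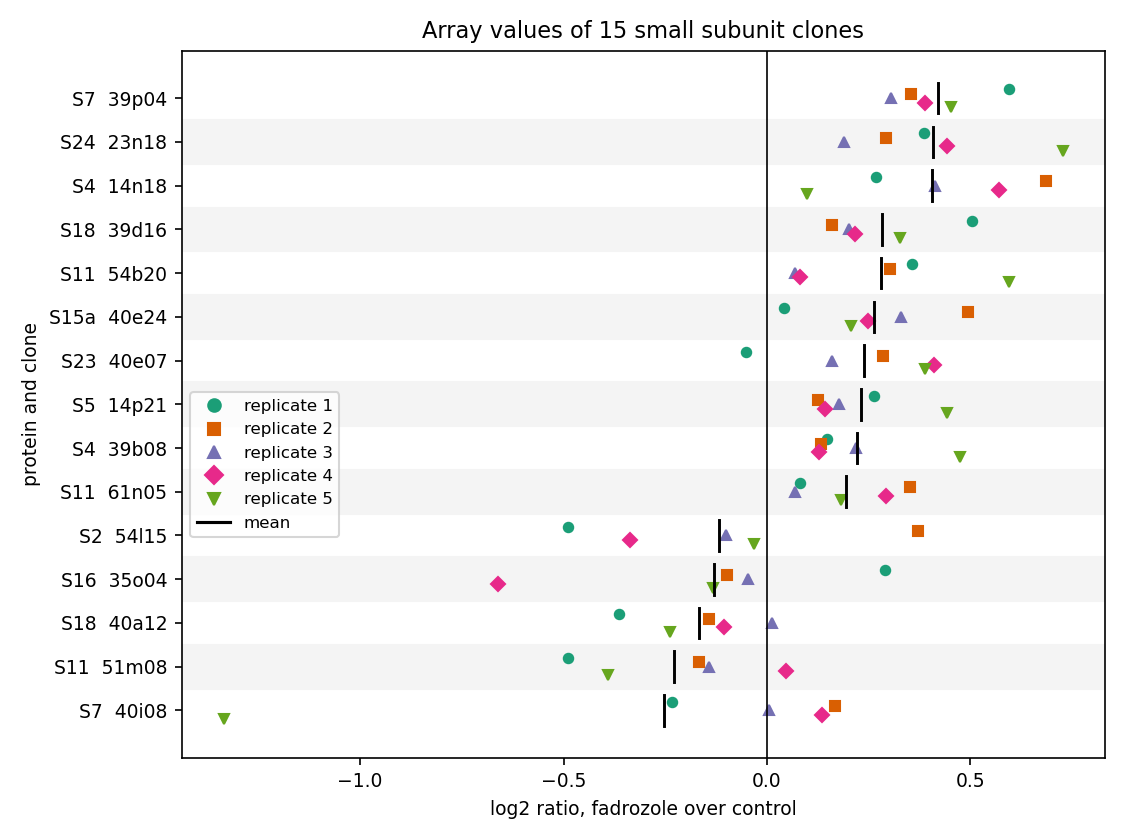
Log2 ratio of fadrozole over control on each array (symbols by replicate) and mean (black line) of the 15 clones that were called, at an unadjusted p under 0.05, or among the 5 highest or 5 lowest. The S7 clone 39p04 runs from 0.30 to 0.60, and the S7 clone 40i08 at the bottom has 1 array at -1.34 apart from the other 4.

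The body carries the decoding site together with the head, and 28 clones of 7 of its proteins (S2, S4, S6, S11, S15a, S23 and S24) were measured. Their mean was 0.10 ± 0.06, above 0 on 5 of 5 arrays, and 19 of 28 clone means were above 0. Of the 10 higher clones at an unadjusted p under 0.05, 7 were of body proteins, which hold 28 of the 57 clones. By limma's test 0 of the 28 were called, and 1 S11 clone was lower at an unadjusted p under 0.05.

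S24, like S7 needed for processing of the small subunit rRNA and mutated in some human patients with Diamond-Blackfan anemia, had the clone with the next smallest p. Clone 23n18 had 0.39, 0.29, 0.19, 0.44 and 0.73, with a mean of 0.41 ± 0.20 (adjusted p = 0.0590). All arrays were above 0, replicate 5 the highest. Both channels were above background on every array, with 1820, 3217, 3535, 3136 and 2804 scanner units in the fadrozole channel against 1120, 1734, 1204, 1313 and 2791 in the control channel. The other S24 clones had means of 0.23 ± 0.50 (40j11) and -0.00 ± 0.11 (39e08). Clone 40j11 was at 1.07 on replicate 5, and its mean without that array was 0.02. Its fadrozole channel was above background on 2 arrays. Clone 39e08 was measured above background in both channels on all 5 arrays, and its array values ran from -0.15 to 0.09. Clones 23n18 and 39e08, the highest and the lowest of the 3, thus gave values that did not overlap over the arrays. This pair was chosen after the values were seen. The mean of the 3 clones was 0.21 ± 0.21, or 0.12 without replicate 5.

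S4 was the protein with several clones whose mean was highest. S4 joins the body early in the assembly of the subunit. Clone 14n18 had 0.27, 0.69, 0.41, 0.57 and 0.10, a mean of 0.41 ± 0.23 (adjusted p = 0.0730). Clone 39b08 had 0.15, 0.13, 0.22, 0.13 and 0.47, a mean of 0.22 ± 0.15 (adjusted p = 0.243), and clone 13o21 had -0.05, 0.64, 0.13, 0.05 and -0.13, a mean of 0.13 ± 0.30. All 3 means were above 0, from 3 different source plates. The fadrozole channel was above the local background on 4 arrays for 14n18 and 13o21 and on 3 for 39b08. Against the 95th percentile of empty spots, the control channel of 14n18 was higher on replicates 1 and 2. On replicates 3 to 5 it was lower, at 101, 71.3 and 127 scanner units against 220, 111 and 147. The fadrozole channel of 14n18 was below that mark on replicate 4 (438 against 474). The joint mean of S4 was 0.25 ± 0.14, with 0.12, 0.49, 0.25, 0.25 and 0.15 on replicates 1 to 5, and replicate 2 was the highest.

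**Figure D3:**
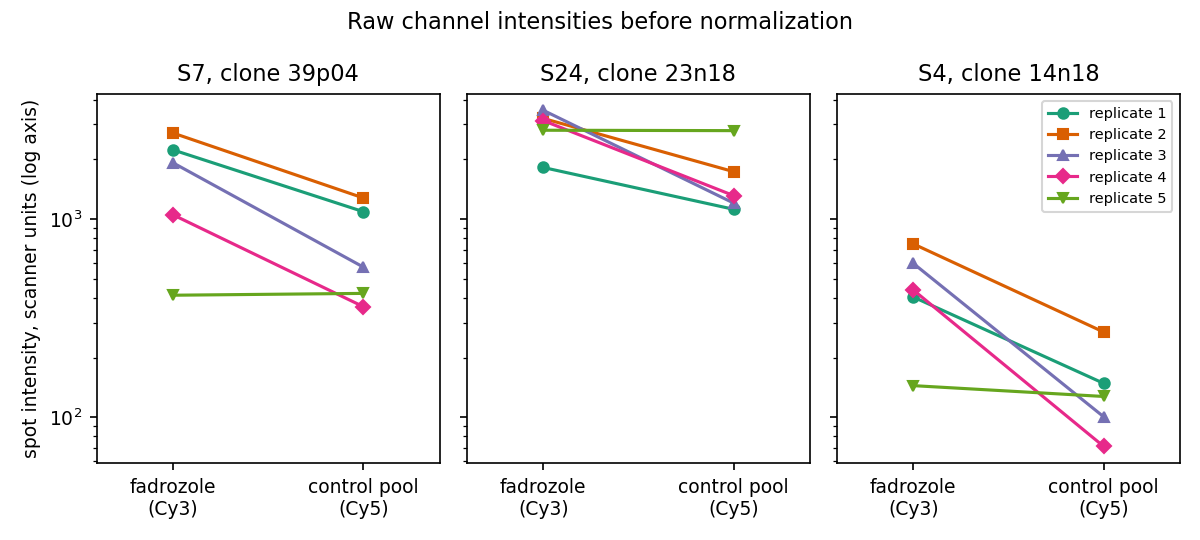
Raw spot intensity in scanner units on a log axis, in the fadrozole channel and in the control channel of each array, for the 3 clones with the smallest p. The channels are not normalized, and on replicate 5 the readings of both channels were close together for each of these clones, 413 and 421 for the S7 clone 39p04.

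Among the proteins with several clones, S27 had the smallest SD over arrays (0.04, at a mean of 0.04). Of those with a mean over 0.1 (S4, S15a and S24), S15a, a core protein of the body, had the smallest. Its clones had means of 0.26 ± 0.17 (40e24), 0.15 ± 0.16 (39i05) and 0.09 ± 0.15 (60g04). The joint mean was 0.17 ± 0.06, with 0.12, 0.25, 0.14, 0.20 and 0.14 on replicates 1 to 5. Clone 40e24, at 0.04, 0.49, 0.33, 0.25 and 0.21, was above 0 on every array but did not pass the test (adjusted p = 0.175). Clone 60g04 is dim, with the fadrozole channel above background on 1 array.

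S23 lies at the decoding center, where it bears on the accuracy of translation. Its single clone 40e07 had -0.05, 0.29, 0.16, 0.41 and 0.39, a mean of 0.24 ± 0.19 (adjusted p = 0.247), with replicate 1 the only array below 0. S2, at the entry of the mRNA channel, had clones on both sides of 0, at 0.23 ± 0.47 (39c13), -0.09 ± 0.09 (30g21) and -0.12 ± 0.33 (54l15). In 39c13 replicate 4 was at 1.04, with spots at 1.86 and 0.21, and its mean without that array was 0.03. Clone 54l15, one of the 5 lowest, had -0.49, 0.37, -0.10, -0.34 and -0.03, with replicate 2 above 0. S6, whose phosphorylation by S6 kinase is a common readout of TOR signaling, had clone means of 0.04 ± 0.19 (54j01) and -0.01 ± 0.18 (14o18). These values are of S6 transcripts and not of its phosphorylation. The fadrozole channel of 54j01 was above background on 1 array.

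S11, a body protein, had 13 clones, more than any other protein. Their means ran from -0.23 to 0.28 with a median of 0.07, and 8 of 13 were above 0. The joint mean was 0.04 ± 0.07. The highest, 54b20, had 0.36, 0.30, 0.07, 0.08 and 0.60, a mean of 0.28 ± 0.22 (adjusted p = 0.198). Clone 61n05 had 0.08, 0.35, 0.07, 0.29 and 0.18, a mean of 0.19 ± 0.13 (adjusted p = 0.294). Both were above 0 on all arrays, 61n05 with its fadrozole channel above background on 2.

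The lowest S11 clone, 51m08, had -0.49, -0.17, -0.14, 0.05 and -0.39, a mean of -0.23 ± 0.21 (unadjusted p = 0.0364, adjusted p = 0.30, limma). Its fadrozole channel was above background on 1 array. The other S11 clones lay between, with 59i17 at 0.12, 54j19 at 0.11, 54m01 at 0.09, 51c03 at 0.08, 40h20 at 0.07, 53o18 at -0.01, 54b09 at -0.03 and 51o06 at -0.04. For 53o15 and 54h13 the fadrozole channel was above background on 0 arrays, so that no fold is given for them. The means of clones described as the same protein spanned 0.51 on the log2 scale, with 7 of the 13 above background in the fadrozole channel on at least 3 arrays.

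The head holds the contacts with tRNA and with the large subunit, and 17 clones of 9 of its proteins (S3, S5, S12, S15, S16, S17, S18, S19 and S25) were measured. Their mean was 0.04 ± 0.08, above 0 on 4 of 5 arrays, with 8 of 17 clone means above 0. Limma called 0 of the 17, and 2 were higher at an unadjusted p under 0.05. S5, which lines the exit side of the mRNA channel, had 1 clone, 14p21, at 0.26, 0.13, 0.18, 0.14 and 0.44. All 5 arrays were above 0, both channels were above background on each, and the mean was 0.23 ± 0.13 (adjusted p = 0.207).

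S18, which forms part of a bridge to the large subunit, had clones that went opposite ways. Clone 39d16 had 0.50, 0.16, 0.20, 0.22 and 0.33, a mean of 0.28 ± 0.14 (adjusted p = 0.128). Clone 40a12 had -0.36, -0.14, 0.01, -0.11 and -0.24, a mean of -0.17 ± 0.14 (adjusted p = 0.398), and clone 51i19 had a mean of -0.09 ± 0.15. Clones 39d16 and 40a12 did not overlap over the arrays. Both had the fadrozole channel above the local background on all 5, but against empty spots they were dim. The 95th percentile of empty spots in that channel was 376, 229, 474, 474 and 142 scanner units on replicates 1 to 5. There 40a12 read 319, 225, 571, 337 and 118, above it on replicate 3 only. Clone 39d16 read 338, 467, 535, 383 and 220, below it on replicates 1 and 4. They are the highest and the lowest of the 3 S18 clones, a pair chosen after the values were seen. How often clones of 1 protein fail to overlap was not counted. The 2 spots of 40a12 differed by 1.58 on replicate 1, and those of 39d16 by up to 0.81. The joint mean of S18 was 0.01 ± 0.06.

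S12 had the highest protein mean, 0.27 ± 0.65, but its 1 clone (52c23) had 0.53, -0.35, 1.27, -0.15 and 0.03, with arrays far on both sides of 0. Without replicate 3 its mean was 0.02. S16, whose tail reaches the tRNA in the peptidyl site, had clone means of 0.26 ± 0.66 (39f13), -0.02 ± 0.13 (39o05) and -0.13 ± 0.34 (35o04). In 39f13 replicate 5 was at 1.44 and the other 4 arrays ran from -0.08 to 0.02. In 35o04, which is dim, the values were 0.29, -0.10, -0.05, -0.66 and -0.13, and its mean without replicate 4 was 0.00.

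S19, the protein most often mutated in Diamond-Blackfan anemia in humans, had 4 clones with means of 0.14 (35n03), -0.01 (39n03), -0.04 (39c09) and -0.08 (39h07) and a joint mean of 0.00 ± 0.10. S15, whose tail reaches toward the decoding site, had clone means of 0.02 (39h15) and -0.10 (40g10). The fadrozole channel of 40g10 was above background on 1 array. S3, at the entry of the mRNA channel and also linked to DNA repair in mammals, had 0.13 ± 0.15 in its 1 clone (39g06), whose fadrozole channel was above background on 1 array. The single clones of S17 (39o09) and of S25 (39d23), a protein used by viral and cellular internal initiation, had means of 0.05 ± 0.29 and -0.03 ± 0.15.

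Over the 14 proteins with at least 2 clones, the range between the highest and the lowest clone mean of a protein had a median of 0.25. All clone means were above 0 for 3 of them (S4, S15a and S21) and below 0 for 1 (SA), and 10 had clones on both sides. Of all 21 proteins, 17 had a mean above 0, and for 5 (S4, S5, S15a, S24 and S27) the mean was above 0 on all 5 arrays. The clones of a protein can differ in length, region or gene copy, which the descriptions do not give, and the part of these in the differences was not tested.

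**Figure D4:**
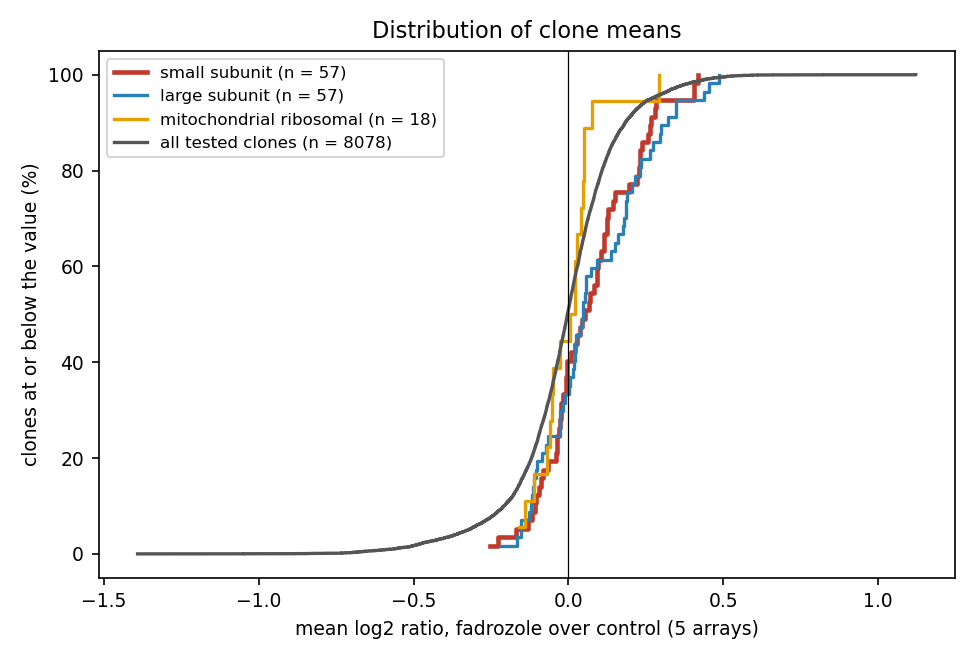
Cumulative share of clones against their mean log2 ratio (fadrozole over control, 5 arrays), for clones of the small subunit, the large subunit, mitochondrial ribosomes and all tested clones. The curves of the small and large subunit lie to the right of the curve of all clones over most of the range (medians 0.05, 0.05 and -0.003, the last 0.01 without plates 02 and 04). The 18 mitochondrial clones, most of them dim, have a median of 0.01.

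The rest of the translation machinery gives the setting. The 57 clones of large subunit proteins, the other part of the same ribosome, had a mean of 0.08 ± 0.07 and a median of 0.05. Of these, 0 were called, and 9 were higher (15.8%) and 1 lower (1.75%) at an unadjusted p under 0.05. Over all tested clones these shares were 6.29% and 8.06%. The large subunit clone of smallest p, L8 (39o02), had 0.40, 0.27, 0.33, 0.49 and 0.94, a mean of 0.49 ± 0.27 (adjusted p = 0.0522). The array means of the large subunit ran from 0.01 to 0.19 and those of the small subunit from 0.02 to 0.13, so that the subunits overlapped. The 18 clones of mitochondrial ribosomal proteins, which build a separate ribosome, had a mean of -0.002 ± 0.03 and a median of 0.01. Of these, 0 were called and 1 (5.56%) was higher at an unadjusted p under 0.05. Most of these clones were dim, with both channels above background on at least 3 arrays for 2 of the 18. Their clone of smallest p, similar to L20 (19p16), was at 0.29 ± 0.35 (adjusted p = 0.322).

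Translation factors (32 clones, mean 0.02 ± 0.08) and ribosome biogenesis genes (7 clones, mean 0.03 ± 0.09) had 0 called each by limma. Of the 7 biogenesis clones 2 had a mean above 0, and the median of the 7 was -0.006. At an unadjusted p under 0.05, 4 translation factor clones were higher (12.5%) and 3 lower (9.4%), and 1 biogenesis clone was higher (14.3%). Their clones of smallest p were eef2l, an elongation factor clone (02g10), at -0.30 ± 0.11 (adjusted p = 0.0912) and a nucleolar autoantigen with a zinc finger (35j14) at 0.42 ± 0.26 (adjusted p = 0.0793). The list of genes that signal to S6 had 3 clones, and 1 of them was called lower. This clone, described only as gf A2 rapamycin (02g09), had -0.57, -0.64, -0.88, -0.48 and -0.25, a mean of -0.56 ± 0.23 (adjusted p = 0.0240). It lies on plate 02, as does the eef2l clone, and its description does not name the gene in full. Over all tested clones 1.61% were called lower. Of these 130 clones, 3 lay outside plates 02 and 04.

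Ratios differed between source plates, and the medians of the 14 plates with small subunit clones ran from -0.01 to 0.08. Plate 39 held 20 of the 57 clones, from 15 proteins and with the called S7 clone among them. The median of all tested clones on plate 39 was 0.05 ± 0.02, and 14.9% of its other clones were higher at an unadjusted p under 0.05. Plate 23, with the S24 clone 23n18, had a median of 0.06 ± 0.02 and 17.04%. Of the 57 clones, 17.5% were higher at an unadjusted p under 0.05, 17.5% were above 0 on all arrays and the mean was 0.07, against 10.9%, 9.41% and 0.05 for the other clones of these plates, with each plate weighted by how many small subunit clones it held. With each plate centered on its median the mean of the 57 was 0.03. These medians took in the small subunit clones themselves. The other clones of these plates included large subunit clones, such as the L8 clone 39o02 on plate 39. The part of the plates in the small subunit values was not tested further.

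Markers of other cells were set beside the small subunit. Ependymin clones averaged -0.30 ± 0.26 (5 of 33 called lower, 17 of the 33 on plates 02 and 04), and the 40 tested clones of neuronal markers averaged -0.12 ± 0.07 (4 called lower, 6 on these plates). All of these calls were on plates 02 and 04, and on the other plates the means were -0.15 for ependymin and -0.07 for neuronal markers. Glial markers (10 clones) averaged 0.02 ± 0.06, with a median of -0.02 and 3 clone means above 0. Markers of oligodendrocytes (28) averaged 0.03 ± 0.09 and those of muscle (105) 0.01 ± 0.05. Limma called 0 clones of these glial, oligodendrocyte and muscle lists. At an unadjusted p under 0.05, 1 glial (10%), 3 oligodendrocyte (10.7%) and 11 muscle clones (10.5%) were higher, and 0, 2 and 13 lower. Over all tested clones the shares were 6.29% higher and 8.06% lower. The 13 clones with hemoglobin or globin in their description averaged -0.27 ± 0.36, at 0.03, -0.07, -0.69, 0.02 and -0.64 on replicates 1 to 5. Of them, 0 were called by limma and 6 (46.2%) were lower at an unadjusted p under 0.05. The 6 include 02b05, a clone on plate 02 described only by a globin domain. The 1 pituitary clone, which lies on plate 02 or 04, was at -0.33 ± 0.18. The mean of these hemoglobin and globin clones was low on replicates 3 and 5, where the small subunit mean was 0.07 on each. The part of these cells in the small subunit values was not tested.

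**Figure D5:**
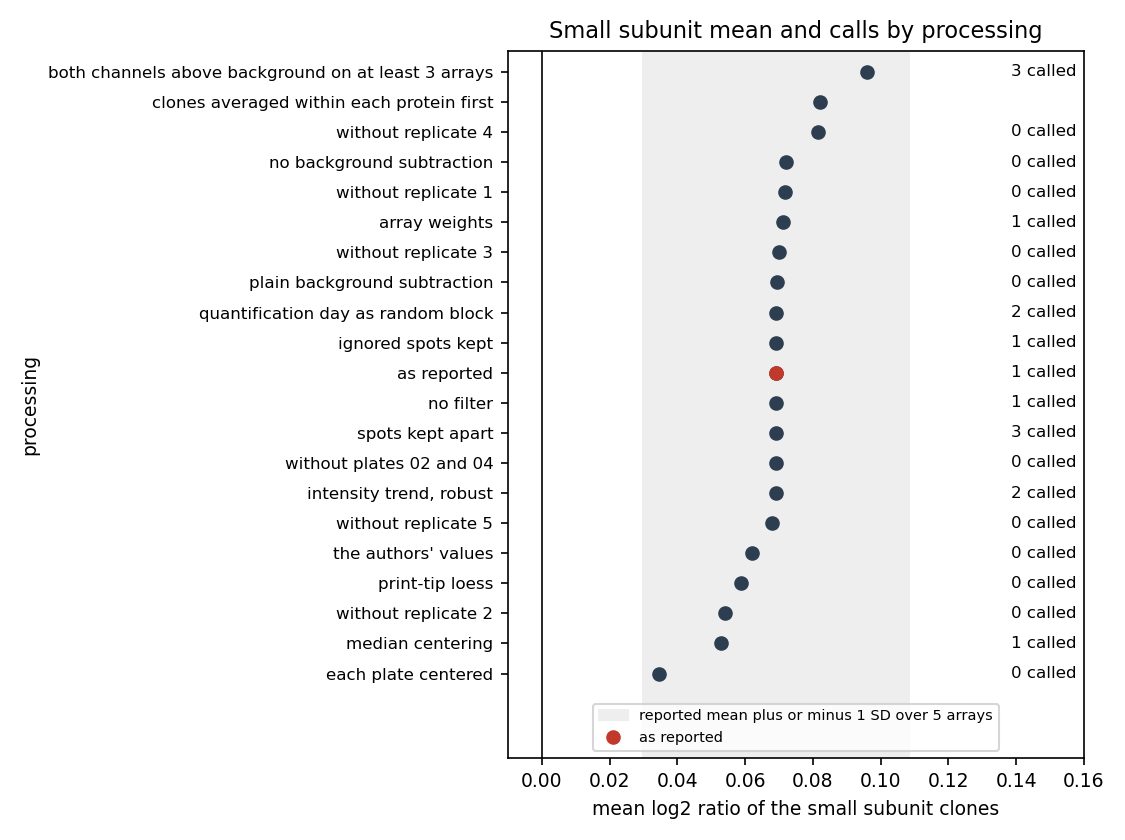
Mean log2 ratio of the small subunit clones under each way of processing the data, sorted by value, with the number of called small subunit clones at the right and the reported mean ± 1 SD over 5 arrays as a gray band. The mean runs from 0.03 to 0.10 and lies inside the band under every processing shown, while the number called runs from 0 to 3. Some settings, such as no filter, leave the mean unchanged by design.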

How the data were processed

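Per the labels, each 2-color array compared 1 exposed group (Cy3) with 1 control pool (Cy5). The deposited scanner reports give the intensity and local background of each spot in linear scanner units, not background subtracted per the file headers, and other columns there, such as the background SD, are in the same unit. The authors also deposited processed values, treated here as log2 values, with neither log base nor scale given. Their correlation over spots with log2 ratios from plain background subtraction and loess was -0.996 to -1.00 (slopes -0.73 to -0.81). Their direction is thus control over fadrozole, and it was turned round. Their smaller scale was left as it was. The column medians lay between -0.0387 and 0.0363. Their spot order differs from that of the scanner reports and was found by this match over all spots.

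Intensities were corrected by normexp (offset 50) and normalized by loess (span 0.3) in limma 3.58.1 (R 4.3.3, statmod 1.5.0). The offset draws the ratios of dim clones towards 0. Control spots and the 0 to 29 spots per array that the scanner software ignored had weight 0, and duplicate spots (2 per clone) were averaged. The filter kept 8078 of 8099 clones, those with signal over the local background plus 2 of its SDs in 1 channel or both. This had to hold on at least 3 arrays, each with a share of 0.5 or more of the usable spots. The mean ratio was tested against 0, two-sided, with Benjamini-Hochberg adjustment, 4 residual and 5.244 prior degrees of freedom. The fit was also run on simulated arrays with known changes, where both spots of a clone had the same ratio and no plate shift was set. That run is not used as support for any value here.

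The clones named were every called member, the 5 highest and 5 lowest, all at an unadjusted p under 0.05, all clones of proteins with at least 2 clones, and the called clones of related lists or else the clone of smallest p. Clones of proteins with 1 clone are given as well, outside this rule. The members, lists and tests were chosen with earlier results of these data known. Words that a list pattern must not match were set from the clone names, and a few marker matches are loose (a non-muscle myosin counts as muscle). Regions of the subunit were assigned from general knowledge of its structure. A gene symbol of the protein was found in the RefSeq goldfish table for 13 of 21 proteins, and no sequence was used. Alternatives covered background, normalization, filters, the authors' values, array and plate effects, and each array left out.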

Additional observations from a re-analysis of the deposited data

Results flagged for a closer look

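Over the 57 small subunit clones, the 14 proteins with several clones and 5 gene lists, 76 sets of 5 array values were checked for 1 array far from the other 4 by Dixon's ratio (above 0.71). There were 5, where chance gives about 1 in 20. The S16 clone 39f13 stood at 1.44 on replicate 5, with its 2 spots at 2.31 and 0.56, and its mean of 0.26 was -0.04 without that array. The S7 clone 40i08 stood at -1.34 on replicate 5, with spots at -1.16 and -1.51, and its mean of -0.25 was 0.02 without it. The S4 clone 39b08 was at 0.47 on replicate 5 against 0.13 to 0.22 on the other arrays, and the S11 clone 51o06 was at 0.29 there against -0.16 to -0.04. The mean of the S21 clones was -0.35 on replicate 3 against 0.12 to 0.19 on the others. All 4 of the single clones were apart on replicate 5, 3 of them high and 1 low. The cause was not tested.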

How the results depend on the processing

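The mean of the small subunit clones stayed above 0 and within 1 SD of its value of 0.07 in all 20 alternatives. It ran from 0.03 with each plate centered to 0.10 with both channels above background (39 clones), and from 0.05 to 0.08 with an array left out. Some alternatives could not move it, namely no filter, the intensity trend with robust fit, without plates 02 and 04, and spots kept apart. These leave the ratios of the 57 clones unchanged, also in the counts of single clones and proteins below. The SD is 0.039, so the 0.035 with each plate centered still counts as within it of 0.069. The number of called clones was 0 in 11 of 19 alternatives, namely no background subtraction, plain background subtraction, print-tip loess, the authors' values, each plate centered, without plates 02 and 04, and each array left out (0 to 0). It was 1 with median centering, no filter, ignored spots kept and array weights, 2 (39p04 and 23n18) with an intensity trend and robust fit or with the day of quantification as a random block, and 3 (39p04, 23n18 and 14n18) with both channels above background or with spots kept apart. At an unadjusted p under 0.05, 5 to 11 small subunit clones were higher in these fits, where the share over all tested clones ran from 4.95% to 12.5%. The 5 were without replicate 5 (4.95% of all tested clones) and the 11 with print-tip loess (6.5%). Over the whole array, 164 clones were called as reported, 0 with no or plain background subtraction, the authors' values, each plate centered, without plates 02 and 04, or without replicate 2 or 3, 1 without replicate 1, 99 without replicate 5, 347 with both channels above background and 401 with spots kept apart. With both channels required, 9 of 39 small subunit clones were higher at an unadjusted p under 0.05, against 12.5% of the 3308 clones tested. The S7 clone 39p04 was above 0 in 19 of 19 alternatives, from 0.31 to 0.47, and was called in 8, with adjusted p from 0.00754 to 0.178 (limma). As 39p04 was above 0 on all 5 arrays, leaving out or weighting arrays could not change its sign. The ratio of 23n18 ran from 0.27 to 0.46 and that of 14n18 from 0.34 to 0.55. The lowest values of 39p04 and 23n18 came from the authors' values, which run on a smaller scale than the log2 ratios. Of 281 comparisons of the 15 clones, 2 changed sign, 35o04 without replicate 4 and 40i08 without replicate 5, and of 266 protein means 4 moved by at least 1 SD, S2 to 0.23 with both channels above background (0.01 as reported, 1 of its 3 clones left), S15a to 0.25 and S18 to -0.05 with plain background subtraction, and S27 to -0.01 with plates centered. The cause of these changes was not tested.

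No paired analysis was possible because 1 exposed group on each array was compared with 1 common pool. Replicate 1 was quantified on another day than the other 4, and the mean over those 4 was 0.07. By local background the fadrozole channel passed less often, with 18 of the 57 clones above it on fewer than 3 arrays, while against empty spots the control channel passed fewer clones on 3 of 5 arrays.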
